A study of Mus musculus with 19 samples.

Results

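The mRNA levels of 10 circadian clock genes were compared in mouse liver: Arntl (also called Bmal1), Clock, Npas2, Per1, Per2, Per3, Cry1, Nr1d1, Nr1d2 and Dbp. They were chosen by name and read in every library as a check on the time of collection, which the labels do not give. All 10 were among the 35498 genes that the deposited quantifications could be summed to, and all 10 were among the 13594 genes with enough reads to be tested. The 19 RNA-seq libraries came from livers of male C57BL/6J mice (written C57Bl/J6 in the labels), all at 24 weeks. They form 4 treatment groups: WSD+beta-Glucan (n = 4), WSD (n = 5), CTRL+beta-Glucan (n = 5) and CTRL (n = 5). According to the series title the beta-glucan is a dietary oat fibre and the study concerns fatty liver disease. WSD is kept here as a group name, since its letters are not explained, and no genetic change or agent shared by all groups is named. Whether the libraries stem from separate mice or from pooled ones is not stated, so p-values measure the spread between these libraries, which may be technical. Below, the livers of a group stand for its libraries.

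The circadian clock of liver cells is a feedback loop of transcription. ARNTL pairs with CLOCK, or with its relative NPAS2, and switches on genes that carry E-box sequences, among them the Per and Cry genes, whose proteins return to block the pair, as well as Nr1d1, Nr1d2 and Dbp. The proteins of Nr1d1 and Nr1d2, REV-ERB alpha and beta, repress Arntl, Clock, Npas2 and Cry1, while DBP is an output factor that acts through D-box sequences, so that in mouse liver Dbp and Nr1d1 peak in the daytime and Arntl and Npas2 near the opposite end of the cycle.

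Between 17238109 and 23432801 estimated reads per library were assigned to named genes, with a median of 19460041, and no 2 libraries held identical counts. At this depth a clock gene rested on as few as 13 reads in a library (Per3) and on as many as 2755 (Nr1d1). Defining hepatocyte markers were abundant in every library, but their level moved with the diet. CPM are counts scaled to a common library size, which was adjusted between libraries by TMM. The summed level of 8 hepatocyte markers was 50200 to 63000 CPM in WSD livers and 109000 to 143000 CPM in CTRL livers. On WSD, 6 of 8 were lower. The 9 macrophage and Kupffer cell markers summed to 881 to 1190 CPM in WSD livers and 80.9 to 237 CPM in CTRL livers, with 8 of 9 higher. In the pair that received beta-glucan, hepatocyte markers summed to 63500 to 93400 CPM in WSD+beta-Glucan livers and 125000 to 161000 CPM in CTRL+beta-Glucan livers, and macrophage markers to 583 to 730 CPM in WSD+beta-Glucan livers and 74.9 to 313 CPM in CTRL+beta-Glucan livers. Stellate cell markers (4 of 5 higher) summed to 98.9 to 160 CPM in WSD livers and 33.6 to 81.0 CPM in CTRL livers, T cell markers (4 of 4 higher) to 2.9 to 7.64 CPM in WSD livers and 1.0 to 1.58 CPM in CTRL livers, and 3 of 5 endothelial, 1 of 4 cholangiocyte and 0 of 3 B cell markers were higher there. With beta-glucan, 4 of 5 stellate cell, 2 of 4 T cell, 1 of 5 endothelial, 3 of 4 cholangiocyte and 0 of 3 B cell markers were higher on WSD, and 1 cholangiocyte marker was lower. No marker was at 0 in all libraries, and the part of cell composition in the clock gene differences was not tested. In bulk tissue, fewer cells of a type and less RNA per cell cannot be told apart. The library titles also carry a number after the letter S. It is 1, 2 or 3 in WSD+beta-Glucan replicate 1 and in CTRL+beta-Glucan replicates 1 and 2, and it is 2 or lies between 6 and 20 in the other 16 libraries. The first 3 were set apart by the number that opens their titles, 37, 39 or 40, the lowest of the series. WSD replicate 1, of title number 52, also has the S number 2 and was kept among the other 16. Because the number 2 occurs in both sets, results are also given without the 3, called the libraries of low S number below.

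Windows around the starts of the clock genes were searched for short motifs of the loop, and the stretches that carry one are shown here because genes with different motifs are compared in what follows. They come from RefSeq on build GRCm38.p6, from windows of 250 bases before to 50 bases after a gene's start. Windows were found for 9 of the 10 genes, 13 windows in all, and Per2 had none. Both strands were searched for CACGTG (the E-box), AGGTCA (the element bound by ROR and REV-ERB factors) and TTANGTAA (the D-box), and no letters of these motifs overlapped in the stretches shown. Capitals mark a match on either strand, and each sequence reads 5′ to 3′ on the strand of its gene:
Cry1 promoter, chr10:85185069-85185154, minus strand: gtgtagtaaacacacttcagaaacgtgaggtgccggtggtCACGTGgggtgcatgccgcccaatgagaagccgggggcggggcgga
Per1 promoter, chr11:69098743-69098857, plus strand: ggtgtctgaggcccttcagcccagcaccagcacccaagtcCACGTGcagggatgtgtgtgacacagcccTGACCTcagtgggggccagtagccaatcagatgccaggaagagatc
Per3 promoter, chr4:151044776-151044910, minus strand: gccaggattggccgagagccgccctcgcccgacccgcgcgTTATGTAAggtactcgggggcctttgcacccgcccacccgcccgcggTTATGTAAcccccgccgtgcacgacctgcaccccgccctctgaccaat
Arntl promoter, chr7:113207530-113207559, plus strand: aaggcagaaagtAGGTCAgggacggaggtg
Clock promoter, chr5:76303576-76303661, minus strand: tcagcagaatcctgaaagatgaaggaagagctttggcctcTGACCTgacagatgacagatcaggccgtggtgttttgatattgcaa
Nr1d2 promoter, chr14:18239138-18239223, minus strand: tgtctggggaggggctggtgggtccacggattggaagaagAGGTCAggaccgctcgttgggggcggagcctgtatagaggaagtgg
The E-box was found at Cry1 and Per1, in 2 of the 13 windows, and 7.15% of all 32851 mouse windows hold it. The AGGTCA element was found at Arntl, Clock, Nr1d2 and Per1, against 16.3% of all windows. The AGGTCA match at Arntl begins 31 bases after the annotated start, and that start is not inside a transcript of the quantification. The D-box occurred in 1 gene only, Per3, where it occurred 2 times, 205 and 158 bases before the start. Of all windows, 2.32% hold a D-box and 0.0822% hold 2 or more. The windows of Npas2, Nr1d1 and Dbp held none of these motifs, which says only that the letters are not in those windows. The annotated starts of the Nr1d1 and Dbp windows are also not inside a transcript of the quantification. These matches describe letters in a window and say nothing of which factor was bound.

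**Figure D1:**
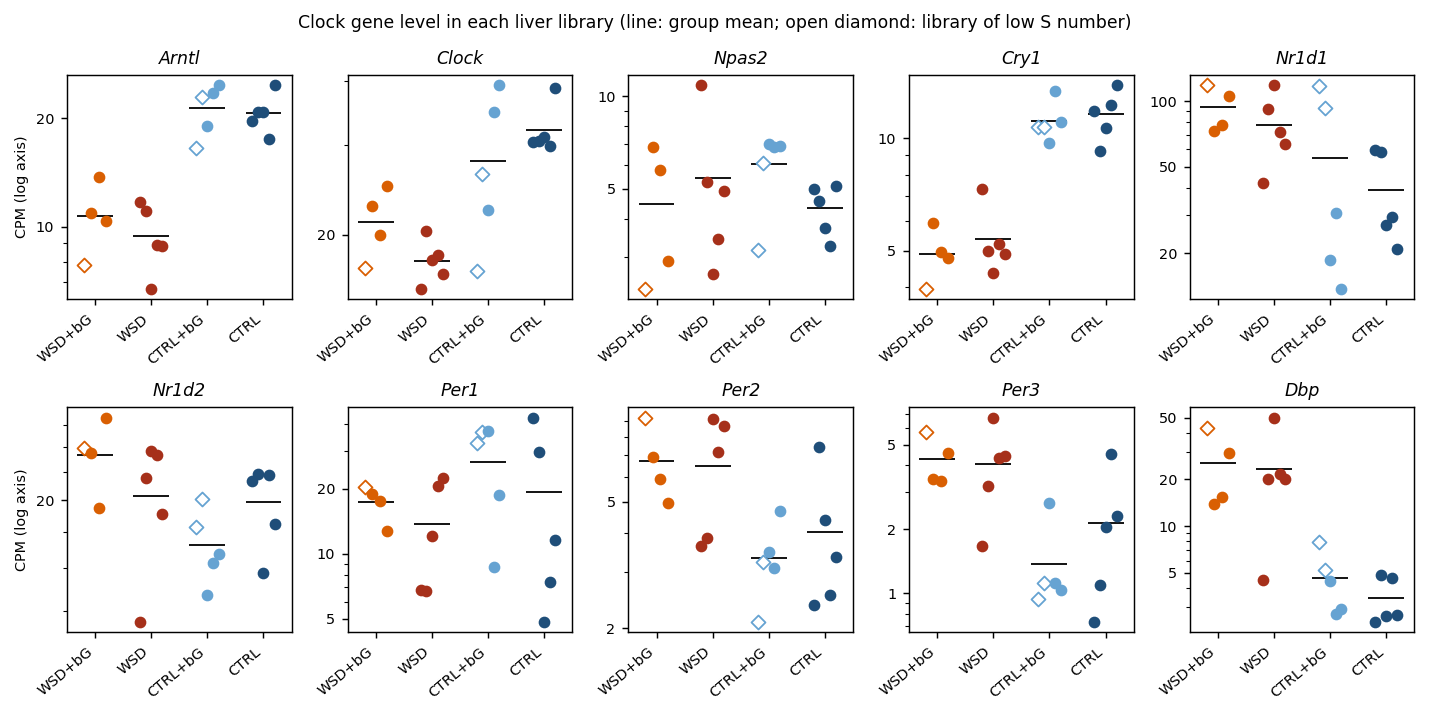
Level of each clock gene in each liver library, in CPM on log axes, with groups from left to right WSD+beta-Glucan (WSD+bG), WSD, CTRL+beta-Glucan (CTRL+bG) and CTRL; lines are group means and open diamonds are the 3 libraries of low S number. Arntl and Cry1 are lower in all 9 WSD-fed libraries than in all 10 CTRL-fed libraries, while Dbp is higher in every WSD-fed library except WSD replicate 1, at 4.51 CPM.

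Arntl, the activator without which the loop stops, fell on WSD in both pairs. Its level was 11.7, 11.1, 6.70, 8.92 and 8.82 CPM in the 5 WSD livers, against 19.7, 20.8, 20.9, 17.6 and 24.8 CPM in the 5 CTRL livers. The groups did not overlap, and the log2 fold change was -1.14 ± 0.16 (SE), 2.20-fold lower (edgeR quasi-likelihood test, Benjamini-Hochberg adjusted p = 6.13e-06). With beta-glucan, Arntl stood at 7.84, 10.9, 13.8 and 10.4 CPM in WSD+beta-Glucan livers, against 16.5, 23.0, 19.1, 23.6 and 24.8 CPM in CTRL+beta-Glucan livers. These groups did not overlap either, with a log2 fold change of -0.99 ± 0.17 (adjusted p = 0.000158). The highest of the 9 WSD-fed libraries, at 13.8 CPM, thus lay below the lowest of the 10 CTRL-fed libraries, at 16.5 CPM. This order of the extremes depends on the TMM scaling. Before it, the former (WSD+beta-Glucan replicate 3) held 319 Arntl counts of 19701841 reads. The latter (CTRL+beta-Glucan replicate 1) held 229 of 17855032, a smaller share. In TPM, WSD and CTRL livers were also apart, with means of 5.53 and 8.51 TPM. TPM is a unit that corrects for transcript length and lacks the TMM scaling of CPM, so the units can differ through either. The pair with beta-glucan overlapped in TPM, with WSD+beta-Glucan replicate 3 at 7.92 TPM and CTRL+beta-Glucan replicate 1 at 5.46 TPM.

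Clock, which encodes the partner of ARNTL, fell on WSD without beta-glucan. It measured 15.7, 20.3, 17.9, 18.3 and 16.8 CPM in WSD livers, against 30.4, 30.5, 31.1, 29.9 and 38.7 CPM in CTRL livers. In CPM the groups were apart, and the log2 fold change was -0.85 ± 0.17 (adjusted p = 0.000311). In TPM they overlapped, with WSD replicate 2 at 4.56 TPM and CTRL replicate 1 at 4.47 TPM. With beta-glucan the levels of Clock were 17.2, 22.8, 19.9 and 24.9 CPM in WSD+beta-Glucan livers and 17.0, 26.2, 22.3, 34.7 and 39.3 CPM in CTRL+beta-Glucan livers. These groups overlapped, because CTRL+beta-Glucan replicate 1 lay below every WSD+beta-Glucan liver and replicate 3 below the highest, and the log2 fold change of -0.40 ± 0.18 did not pass (adjusted p = 0.0879). Without CTRL+beta-Glucan replicate 1 the value was -0.53 (adjusted p = 0.0117), and without the 3 libraries of low S number it was -0.50 (adjusted p = 0.0277). Npas2, whose protein can stand in for CLOCK, ranged from 2.64 to 10.9 CPM in WSD livers and from 3.25 to 5.10 CPM in CTRL livers, with a log2 fold change of 0.32 ± 0.35 (adjusted p = 0.451). With beta-glucan it ranged from 2.36 to 6.87 CPM in WSD+beta-Glucan livers and from 3.17 to 7.02 CPM in CTRL+beta-Glucan livers, with a log2 fold change of -0.43 ± 0.37 (adjusted p = 0.392). The groups of Npas2 overlapped in both pairs.

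Cry1, which encodes a repressor of the ARNTL and CLOCK pair, also fell on WSD in both pairs. It was at 7.32, 4.99, 4.37, 5.22 and 4.92 CPM in WSD livers, against 11.9, 9.26, 10.7, 12.2 and 13.9 CPM in CTRL livers. In CPM no WSD liver reached the lowest CTRL liver, and the log2 fold change was -1.11 ± 0.14 (adjusted p = 2.86e-06). In TPM the groups overlapped, with WSD replicate 1 at 4.63 TPM and CTRL replicate 2 at 4.38 TPM. With beta-glucan, Cry1 stood at 3.95, 5.93, 4.97 and 4.80 CPM in WSD+beta-Glucan livers, against 10.8, 10.7, 9.73, 13.4 and 11.1 CPM in CTRL+beta-Glucan livers. In CPM these groups were again apart, with a log2 fold change of -1.18 ± 0.16 (adjusted p = 1.44e-05). Within CTRL+beta-Glucan livers Cry1 had the smallest SD of log2 CPM of the 10, and 67.1% of the 10844 genes with a mean of at least 2 CPM had a larger one.

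The other repressors of the PER and CRY arm, the period genes, were less uniform. Per2 was at 3.64, 3.84, 9.12, 7.18 and 8.69 CPM in WSD livers, against 2.36, 7.43, 4.37, 2.54 and 3.35 CPM in CTRL livers. The groups overlapped through CTRL replicate 2 and WSD replicates 1 and 2, and the log2 fold change of 0.70 ± 0.32 did not pass (adjusted p = 0.0713). It passed when WSD replicate 1 (adjusted p = 0.032), WSD replicate 2 (adjusted p = 0.0349) or CTRL replicate 2 (adjusted p = 0.00717) was left out, and it passed by DESeq2 (adjusted p = 0.0419). With beta-glucan, Per2 was higher in every WSD+beta-Glucan liver, at 9.22, 6.91, 5.88 and 4.97 CPM, than in any CTRL+beta-Glucan liver, at 2.09, 3.23, 3.48, 3.10 and 4.70 CPM. In TPM these groups overlapped, with WSD+beta-Glucan replicate 4 at 1.12 TPM and CTRL+beta-Glucan replicate 2 at 1.24 TPM. The log2 fold change was 1.01 ± 0.34 (adjusted p = 0.0272). That call was lost without the 3 libraries of low S number (0.67, adjusted p = 0.258), with length offsets (1.08, adjusted p = 0.0661) and without any one of WSD+beta-Glucan replicate 1 (adjusted p = 0.089), WSD+beta-Glucan replicate 2 (adjusted p = 0.0572), CTRL+beta-Glucan replicate 1 (adjusted p = 0.0639) or CTRL+beta-Glucan replicate 4 (adjusted p = 0.0509).

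Per3, a period gene of the same family, had the lowest counts of the 10. Its level was 1.66, 3.18, 6.70, 4.30 and 4.43 CPM in WSD livers, against 0.731, 1.1, 2.04, 4.49 and 2.32 CPM in CTRL livers. The groups overlapped, with a log2 fold change of 0.92 ± 0.41 (adjusted p = 0.0646). It passed without CTRL replicate 4 (1.38, adjusted p = 0.00709), without WSD replicate 1 (adjusted p = 0.0242) and without CTRL+beta-Glucan replicate 3 (adjusted p = 0.0489). The last of these is in neither group compared and entered through steps shared by all libraries, such as scaling and the estimate of spread. DESeq2 also called Per3 here (0.97, adjusted p = 0.0366). With beta-glucan, Per3 was at 5.76, 3.43, 3.37 and 4.55 CPM in WSD+beta-Glucan livers, against 0.938, 1.12, 2.64, 1.11 and 1.04 CPM in CTRL+beta-Glucan livers. The groups did not overlap, and the log2 fold change was 1.64 ± 0.45 (adjusted p = 0.00837). Without the 3 libraries of low S number it was 1.27 and did not pass (adjusted p = 0.115). Per1, the period gene that also responds to acute signals such as glucocorticoids, showed no call in either pair. It ranged from 6.73 to 22.4 CPM in WSD livers and from 4.84 to 42.8 CPM in CTRL livers, with a log2 fold change of -0.49 ± 0.55 (adjusted p = 0.478). With beta-glucan it ranged from 12.8 to 20.4 CPM in WSD+beta-Glucan livers and from 8.71 to 36.9 CPM in CTRL+beta-Glucan livers, with a log2 fold change of -0.61 ± 0.58 (adjusted p = 0.442).

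Nr1d1 encodes REV-ERB alpha, the repressor of Arntl, and it passed in neither diet pair with all libraries in the model. It stood at 41.9, 92.5, 119, 71.8 and 63.5 CPM in WSD livers, against 59.5, 58.5, 26.9, 29.3 and 20.95 CPM in CTRL livers. The groups overlapped through WSD replicate 1, and the log2 fold change of 0.997 ± 0.52 did not pass (adjusted p = 0.118). Nr1d1 was at 118, 72.7, 78.1 and 106 CPM in WSD+beta-Glucan livers, against 118, 92.8, 18.6, 30.5 and 13.6 CPM in CTRL+beta-Glucan livers. The high values of the CTRL+beta-Glucan group are replicates 1 and 2, both of low S number, and with all libraries the log2 fold change was 0.78 ± 0.54 (adjusted p = 0.282). Without the 3 libraries of low S number, the log2 fold change of Nr1d1 was 2.04 with beta-glucan (adjusted p = 0.00675) and 1.0 without it (adjusted p = 0.0279). With a term for those libraries in the model it was 1.51 with beta-glucan (adjusted p = 0.0156) and 0.997 without it (adjusted p = 0.0383). Fitted on the WSD and CTRL libraries alone, it was 1.03 (adjusted p = 0.044). Nr1d2, for REV-ERB beta, ranged from 11.9 to 24.6 CPM in WSD livers and from 14.7 to 22.4 CPM in CTRL livers, with a log2 fold change of 0.04 ± 0.17 (adjusted p = 0.865). In the pair that received beta-glucan it was higher on WSD, ranging from 19.3 to 28.4 CPM in WSD+beta-Glucan livers and from 13.4 to 20.1 CPM in CTRL+beta-Glucan livers, with a log2 fold change of 0.56 ± 0.18 (adjusted p = 0.0214). These groups touched at 1 library each, and the call was lost without WSD+beta-Glucan replicate 1 (adjusted p = 0.05), WSD+beta-Glucan replicate 4 (adjusted p = 0.0702) or CTRL+beta-Glucan replicate 3 (adjusted p = 0.0535).

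Dbp, the output factor, had the largest fold change of the 10 genes in both diet pairs. It was at 4.51, 20.2, 50.1, 21.6 and 19.99 CPM in WSD livers, against 2.42, 4.87, 2.62, 4.67 and 2.68 CPM in CTRL livers. In CPM, 4 of 5 WSD livers exceeded every CTRL liver in Dbp, while WSD replicate 1 lay within the CTRL range. In TPM, WSD replicate 1, at 5.04 TPM, lay slightly above the highest CTRL liver, replicate 2 at 4.98 TPM. The log2 fold change was 2.76 ± 0.52, 6.77-fold higher (adjusted p = 0.000334). With beta-glucan, Dbp was at 42.9, 13.9, 15.5 and 29.6 CPM in WSD+beta-Glucan livers, against 7.86, 5.21, 4.44, 2.74 and 2.92 CPM in CTRL+beta-Glucan livers. The groups did not overlap, and the log2 fold change was 2.48 ± 0.53, 5.60-fold higher (adjusted p = 0.00182). Of the 2993 exon bases of Dbp, 539 (18.0%) lie opposite exons of Sphk2, a sphingosine kinase gene on the other strand. The libraries were made with a stranded kit, but the strand setting of the quantification is not given in the sources used here, so reads from that stretch cannot be assigned with certainty. Sphk2 averaged 86.2 CPM and had a log2 fold change of -0.46 in WSD against CTRL (adjusted p = 0.00132), opposite in sign to that of Dbp. Nr1d1 shares 263 of 3077 exon bases (8.5%) in the same way with Thra, whose log2 fold change was 0.06 (adjusted p = 0.696), and Arntl shares 33 of 7523 (0.4%) with Gm45355.

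**Figure D2:**
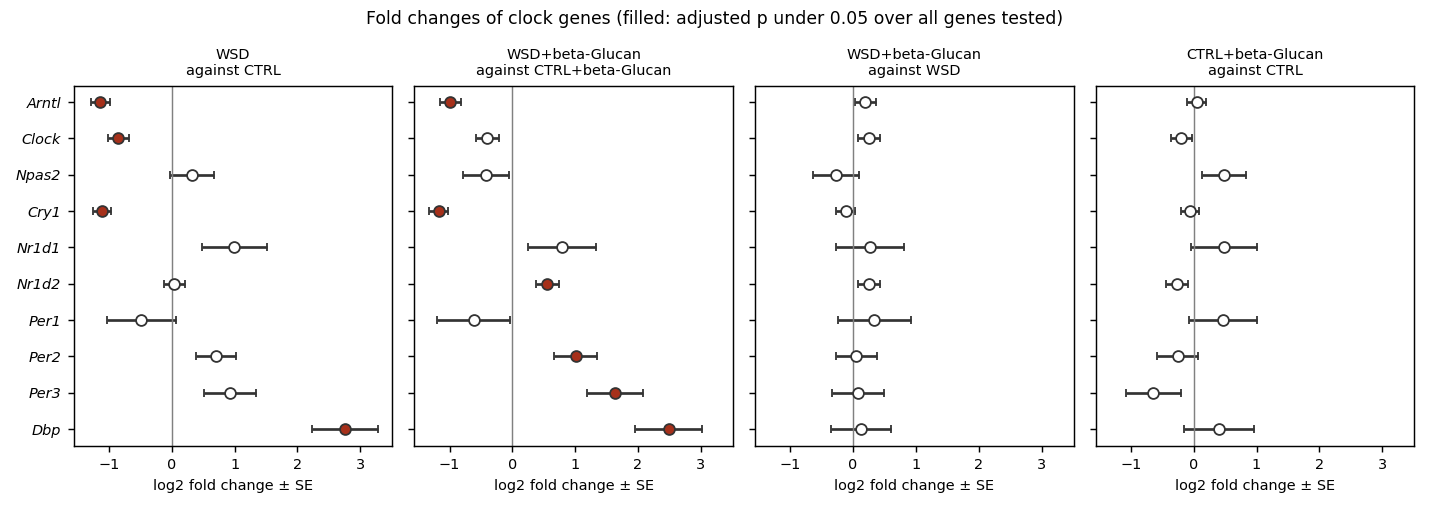
Log2 fold change of each clock gene with its SE in 4 comparisons, each named above its panel; filled points passed an adjusted p of 0.05 over all genes tested. In the left panels, Arntl and Cry1 lie near -1 and Dbp at 2.76 and 2.48, and in the right panels, where beta-glucan is compared within a diet, no point is filled.

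In WSD against CTRL, 1 of the 10 clock genes rose (Dbp) and 3 fell (Arntl, Cry1 and Clock). Over all genes tested the share called was 53.0%, with 26.0% higher and 27.1% lower, so 4 of 10 is no more than the share of the transcriptome. By DESeq2, and by edgeR without WSD replicate 1, 3 rose (Dbp, Per2 and Per3) and 3 fell, where 7155 and 6560 of all genes were called. In CPM the groups did not overlap for 3 of the 10, against 38.4% of all genes. In size, the median absolute log2 fold change of the 10 was 0.89, beside 0.37 over all genes, and the signed median was 0.18 beside -0.04. In WSD+beta-Glucan against CTRL+beta-Glucan, 4 of the 10 rose (Dbp, Per3, Per2 and Nr1d2) and 2 fell (Arntl and Cry1), where 34.3% of all genes were called, 19.1% higher and 15.2% lower. In CPM the groups were apart for 5 of the 10, against 25.2% of all genes, and the median absolute log2 fold change was 0.89, beside 0.28 over all genes. This median also exceeded that of all genes where no clock gene was called. It was 0.222 beside 0.156 in WSD+beta-Glucan against WSD, and 0.332 beside 0.118 in CTRL+beta-Glucan against CTRL. The calls of Arntl, Cry1, Clock and Dbp without beta-glucan, and of Arntl, Cry1 and Dbp with it, held in all 26 other settings tried.

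No clock gene passed the test for beta-glucan on either diet. In WSD+beta-Glucan against WSD, 0 of the 10 passed by edgeR or by DESeq2 and 0 had an unadjusted p under 0.05, where 0.39% of all genes (53 genes) passed and 15.6% had an unadjusted p under 0.05. The groups overlapped for all 10, while they were apart for 7.42% of all genes. The log2 fold changes ran from -0.27 ± 0.36 (Npas2) to 0.34 ± 0.58 (Per1). The intervals of 2 SE allow changes of -0.14 to 0.52 for Arntl, -0.43 to 0.19 for Cry1 and -0.84 to 1.09 for Dbp, so a doubling of Dbp by beta-glucan is not outside what these libraries allow. In CTRL+beta-Glucan against CTRL, 0 of the 10 passed by either tool and 0 had an unadjusted p under 0.05, where 0.00736% of all genes (1 gene) passed, 5.7% had an unadjusted p under 0.05 and 0.486% had groups apart. The values ran from -0.64 ± 0.44 (Per3) to 0.48 ± 0.52 (Nr1d1). Nr1d1 turned to -0.90 there without the 3 libraries of low S number (adjusted p over the settings tried 0.594 to 1.0). Between both beta-glucan effects, the difference passed for 0 of the clock genes by edgeR and by DESeq2, where 0.00736% of all genes passed. Nr1d2 was the 1 clock gene with an unadjusted p under 0.05 there, as 13.7% of all genes had (0.52 ± 0.25, edgeR, unadjusted p = 0.0485, adjusted p = 0.363).

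The relation of Dbp to Arntl within a library sets an output of the loop beside its activator, and it separated the diets with 1 exception. The ratio is made of the Dbp and Arntl levels given above, so its separation restates theirs. The log2 ratio of their CPM was 2.45, 0.35, 0.17 and 1.51 in WSD+beta-Glucan livers and -1.37, 0.87, 2.90, 1.27 and 1.18 in WSD livers. It was -1.07, -2.14, -2.10, -3.11 and -3.09 in CTRL+beta-Glucan livers and -3.02, -2.10, -2.99, -1.91 and -3.21 in CTRL livers. WSD replicate 1 was the only WSD-fed library that fell inside the range of the CTRL-fed ones, and CTRL+beta-Glucan replicate 1 marked the upper end of that range. The mean ratio was 1.12 ± 1.07 in WSD+beta-Glucan, 0.97 ± 1.53 in WSD, -2.30 ± 0.84 in CTRL+beta-Glucan and -2.65 ± 0.60 in CTRL (SD). The log2 ratio of Nr1d1 to Arntl averaged 3.13 ± 0.64 in WSD+beta-Glucan, 2.98 ± 0.82 in WSD, 0.87 ± 1.52 in CTRL+beta-Glucan and 0.79 ± 0.77 in CTRL. Among CTRL+beta-Glucan livers it was 2.84 and 2.02 in replicates 1 and 2, and -0.037, 0.37 and -0.86 in the others. No collection time is given in the labels, so a difference in the time of collection between the diets and a difference in the level of these genes at 1 time cannot be told apart.

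**Figure D3:**
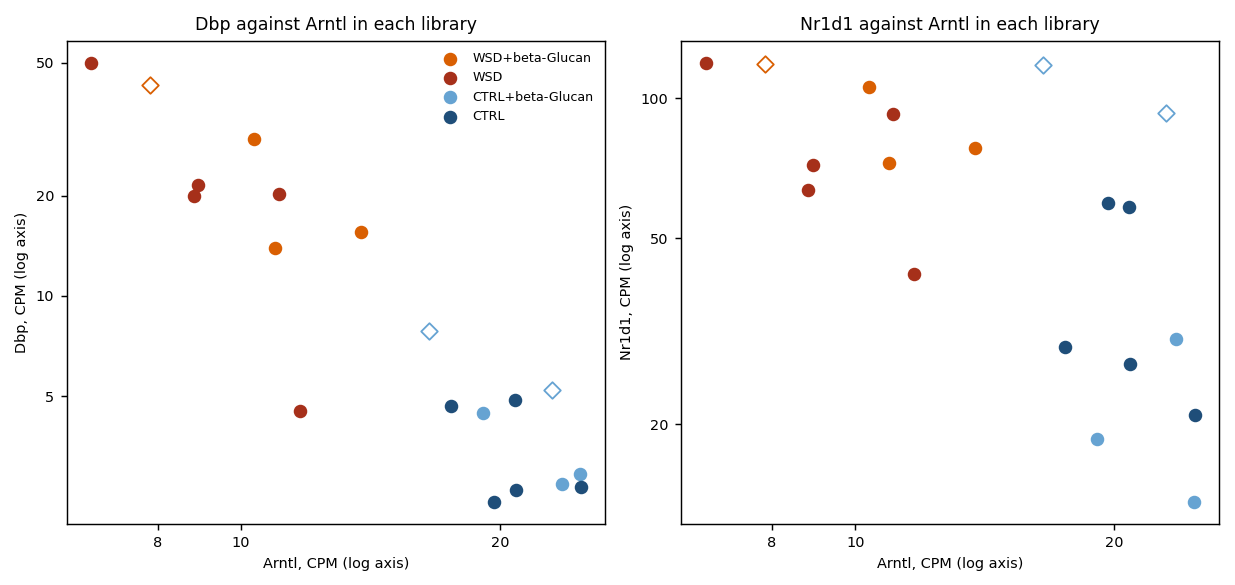
Dbp (left) and Nr1d1 (right) against Arntl in each of the 19 libraries, in CPM on log axes, coloured by group, with open diamonds for the 3 libraries of low S number. WSD-fed livers lie at 13.8 CPM of Arntl or less and mostly at high Dbp, with WSD replicate 1 at 4.51 CPM, and on the right CTRL+beta-Glucan replicates 1 and 2 lie at 118 and 92.8 CPM of Nr1d1, level with the WSD-fed livers.

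Clock genes also differed widely between libraries of the same group. Dbp spanned an 11.1-fold range in WSD livers, and only 0.277% of the 10844 genes with a mean of at least 2 CPM had a larger SD of log2 CPM there. Per1 spanned an 8.86-fold range in CTRL livers (0.498% of genes with a larger SD), Nr1d1 an 8.65-fold range in CTRL+beta-Glucan livers (0.535%) and Npas2 a 4.14-fold range in WSD livers (0.931%). Clock in CTRL livers, by contrast, spanned a 1.29-fold range, with 63.3% of genes more variable, and Arntl a 1.41-fold range, with 53.0% more variable.

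Deviations of log2 CPM from the group mean were then compared between Arntl and each of the 9 other genes over the 19 libraries, with p from 100000 permutations within groups, adjusted over the 9 relations. Npas2, which like Arntl is repressed by REV-ERB, was higher where Arntl was higher (Pearson r = 0.802, Spearman rho = 0.737, adjusted p = 0.00288 and 0.0113, raw p = 0.00032 and 0.00169). Dbp was lower where Arntl was higher (r = -0.780, rho = -0.723, adjusted p = 0.00378 and 0.0113, raw p = 0.00084 and 0.00251). The other 7 relations did not pass, with r from -0.495 (Per3, adjusted p = 0.0525) to 0.588 (Cry1, adjusted p = 0.0502). Without the libraries farthest from the median of Arntl, WSD replicate 3 and WSD+beta-Glucan replicate 1, r was 0.688 for Npas2 and -0.646 for Dbp (adjusted p = 0.0402 for both), while the rank correlations no longer passed (adjusted p = 0.0758 for both). Without the 3 libraries of low S number r was 0.711 for Npas2 and -0.742 for Dbp, and neither passed (adjusted p = 0.0636).

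The relations to Arntl were also computed within each diet. Among the 9 WSD-fed livers, Arntl ran with Npas2 (r = 0.829, rho = 0.867) and against Per3 (r = -0.869, rho = -0.967), Dbp (r = -0.818, rho = -0.783) and Per2 (r = -0.803, rho = -0.850). Their adjusted p from exact permutation tests within groups was 0.00937 for the r of Per3 and 0.0312 for that of the other 3. Cry1 passed by rank (rho = 0.800, exact permutation, adjusted p = 0.0394) but not by r (0.715, adjusted p = 0.0734). Among the 10 CTRL-fed livers, the relation that passed was with Clock (r = 0.892, rho = 0.952, exact permutation within groups, adjusted p = 0.000625 for both), which was at r = 0.194 among WSD-fed livers. Npas2 (r = 0.749, adjusted p = 0.114) and Dbp (r = -0.701, adjusted p = 0.156) kept their signs there, and Per2 had r = 0.486. Whether these relations differ between the diets was not tested.

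**Figure D4:**
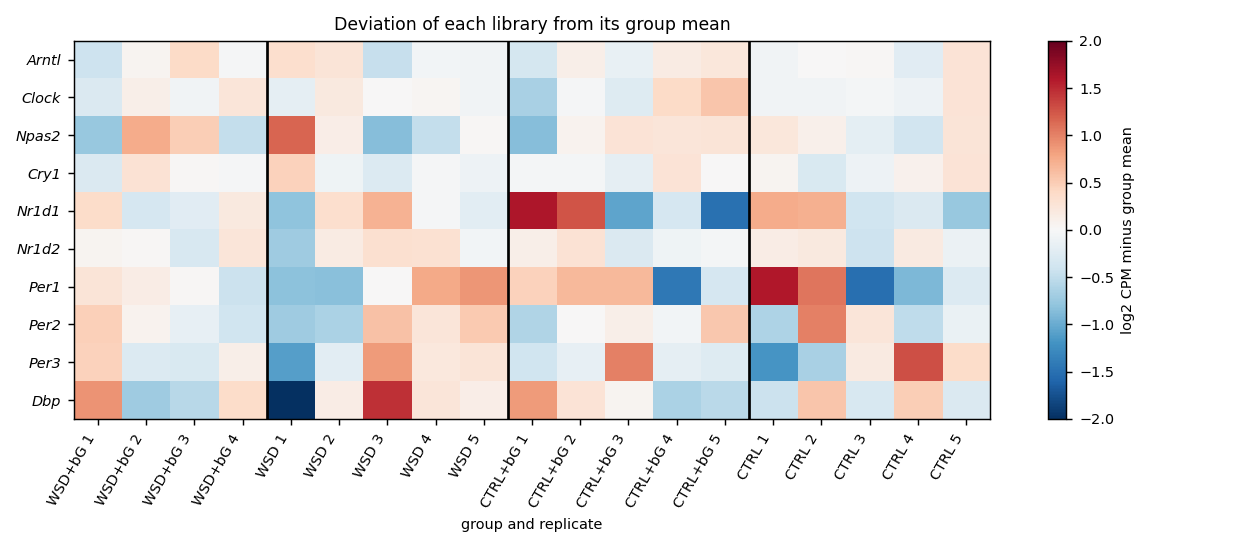
Deviation of log2 CPM from the group mean for each clock gene (down the page) in each library (across, by group and replicate, bG for beta-Glucan), red for above and blue for below the mean. WSD replicate 1 is high in Npas2 (10.9 CPM) and low in Dbp (4.51 CPM) and Per3 (1.66 CPM), and WSD replicate 3 shows the opposite signs, with 2.64, 50.1 and 6.70 CPM.

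Between genes, levels were ordered by TPM, which corrects for transcript length. Nr1d1 had the highest mean of the 10 in every group, at 48.7 ± 9.80 TPM in WSD+beta-Glucan, 45.9 ± 16.5 in WSD, 21.2 ± 16.6 in CTRL+beta-Glucan and 16.2 ± 8.21 in CTRL (SD). Dbp took rank 2 on WSD, at 26.1 ± 13.1 TPM in WSD+beta-Glucan and 27.9 ± 19.2 in WSD, and rank 7 on the control diet, at 3.78 ± 0.98 TPM in CTRL+beta-Glucan and 3.38 ± 1.21 in CTRL. Arntl held rank 4 in both WSD-fed groups, at 5.67 ± 1.72 TPM in WSD+beta-Glucan and 5.53 ± 1.34 in WSD, and rank 2 in both CTRL-fed groups, at 8.92 ± 2.22 TPM in CTRL+beta-Glucan and 8.51 ± 0.89 in CTRL. Per3 was lowest in each group, at 1.38 TPM in WSD+beta-Glucan, 1.41 in WSD, 0.351 in CTRL+beta-Glucan and 0.499 in CTRL. Most neighbours in this order did not differ beyond their spread. The ranges were apart only between Dbp and Nr1d2 and between Nr1d2 and Arntl in WSD+beta-Glucan, and between Dbp and Npas2 in CTRL.

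Reads were split between transcripts by the quantification model, so shares of isoforms are descriptions. Cry1 came almost wholly from Cry1-201, at 100% of its TPM in all groups but CTRL, where the mean was 95.9%. Nr1d1-201 took 91.2 ± 2.87% of the TPM of Nr1d1 in WSD+beta-Glucan livers, 87.6 ± 4.25% in WSD, 91.1 ± 6.17% in CTRL+beta-Glucan and 90.9 ± 0.83% in CTRL livers (SD). For Per3 the most abundant was Per3-204, annotated as a processed transcript without a coding sequence, at 65.6 ± 6.66% in WSD+beta-Glucan, 64.8 ± 4.71% in WSD, 57.5 ± 33.6% in CTRL+beta-Glucan and 57.4 ± 4.77% in CTRL livers. Arntl-201 took 62.1 ± 14.1% in WSD+beta-Glucan, 59.6 ± 17.8% in WSD, 76.6 ± 9.85% in CTRL+beta-Glucan and 71.3 ± 6.95% in CTRL livers, with overlapping ranges. The split of Per1 was unstable, with Per1-201 at 0% to 90.2% within WSD+beta-Glucan livers alone. For Dbp, the retained intron transcript Dbp-205 took 18.2 ± 7.6% in WSD and 3.5 ± 2.11% in CTRL livers, with ranges apart. With beta-glucan it took 19.5 ± 2.74% in WSD+beta-Glucan and 21.2 ± 17.2% in CTRL+beta-Glucan livers, with overlapping ranges. The coding transcript Dbp-204 ran from 0% to 79.1% within CTRL livers alone.

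**Figure D5:**
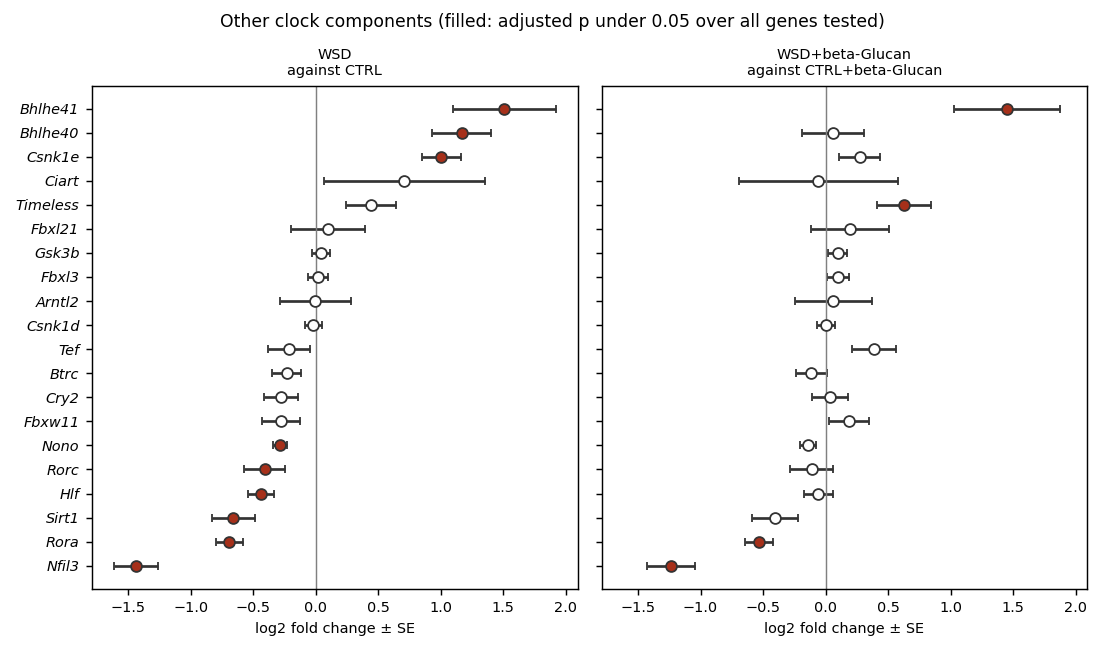
Log2 fold change with SE of 20 other clock components in WSD against CTRL (left) and WSD+beta-Glucan against CTRL+beta-Glucan (right); filled points passed an adjusted p of 0.05 over all genes tested. Nfil3 and Rora are lowest in both panels, and Csnk1e, at 1.0 on the left, is not filled on the right.

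Of 21 other clock components, 20 were tested and 3 rose and 6 fell in WSD against CTRL, where 53.0% of all genes were called, with a median log2 fold change of -0.12 beside -0.04 over all genes. Nfil3, which encodes a repressor that competes with DBP for D-boxes and is itself a target of REV-ERB, fell to 25.0 ± 6.72 CPM in WSD livers, against 67.6 ± 15.0 CPM in CTRL livers (log2 fold change -1.44 ± 0.18, adjusted p = 2.01e-06). Rora, for an activator that competes with REV-ERB for the same element, averaged 21.7 ± 1.91 CPM in WSD livers and 35.1 ± 3.38 CPM in CTRL livers (-0.69 ± 0.10, adjusted p = 1.77e-05). Csnk1e, for a casein kinase that marks PER proteins, averaged 9.93 ± 1.43 CPM in WSD livers and 4.95 ± 0.36 CPM in CTRL livers (1.0 ± 0.16, adjusted p = 2.2e-05), and Nono, for an RNA-binding partner of PER, changed by -0.29 ± 0.06 (adjusted p = 0.000346). With beta-glucan, 2 of 20 rose and 2 fell, where 34.3% of all genes were called. These were Nfil3 (-1.24 ± 0.19) and Rora (-0.53 ± 0.11), and, named after their values were seen, Bhlhe41 (1.45 ± 0.42), which encodes a repressor at E-boxes, and Timeless (0.63 ± 0.22).

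Of 25 genes known to follow the clock in liver, 5 rose and 8 fell in WSD against CTRL, where 26.0% of all genes were higher and 27.1% lower (median log2 fold change -0.06, beside -0.04 over all genes). With beta-glucan 5 rose and 7 fell, where 19.1% of all genes were higher and 15.2% lower (-0.0052, beside -0.01 over all genes). Elovl3, a fatty acid elongase with a strong daily rhythm, averaged 89.0 ± 31.5 CPM in WSD livers and 602 ± 138 CPM in CTRL livers (-2.76 ± 0.27, adjusted p = 1.97e-07). Por, the electron donor of cytochrome P450 enzymes, averaged 238 ± 84.9 CPM in WSD livers and 629 ± 98.7 CPM in CTRL livers (-1.40 ± 0.22). Clpx, a mitochondrial protease subunit, changed by -0.83 ± 0.13, and Nfe2l2, the NRF2 regulator of antioxidant genes, by 0.81 ± 0.10. Each of these 4 passed (adjusted p from 1.63e-06 to 3.17e-05 for the last 3).

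Signals that can set or shift a liver clock were read from 3 further lists. Of 19 fasting and feeding genes, 5 rose and 11 fell in WSD against CTRL, and 3 rose and 8 fell with beta-glucan, where 53.0% and 34.3% of all genes were called. The median log2 fold change was -0.78 without beta-glucan (-0.04 over all genes) and -0.45 with it (-0.01 over all genes). On the log2 scale in WSD against CTRL, Pklr, pyruvate kinase of glycolysis, changed by 1.20 ± 0.11 (SE) and Srebf1, the regulator of lipid synthesis, by 1.71 ± 0.18, while G6pc, the last enzyme of glucose release, changed by -1.88 ± 0.20, and all of them passed. Of 14 glucocorticoid responsive genes, 1 rose and 4 fell in WSD against CTRL, and 0 rose and 4 fell with beta-glucan, against the same 53.0% and 34.3% of all genes called. The median log2 fold change was -0.51 without beta-glucan and -0.60 with it. Fkbp5, a chaperone gene induced by the glucocorticoid receptor, averaged 17.5 ± 2.72 CPM in WSD livers and 68.2 ± 13.5 CPM in CTRL livers (-1.97 ± 0.26, adjusted p = 5.72e-06). Tat changed by -1.86 ± 0.28, Cdkn1c by 1.29 ± 0.28 and Errfi1 by -0.93 ± 0.29, each past the threshold, and Tat is also one of the hepatocyte markers above.

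Of 12 genes that respond to body temperature, 1 rose and 7 fell in WSD against CTRL, and 3 rose and 2 fell with beta-glucan, against 53.0% (27.1% lower) and 34.3% of all genes called. Cirbp, the cold-inducible RNA-binding protein whose level follows the daily temperature rhythm, averaged 21.2 ± 3.22 CPM in WSD livers and 31.2 ± 4.10 CPM in CTRL livers (-0.56 ± 0.15, adjusted p = 0.00361). The chaperone genes Ahsa1 (-0.45 ± 0.07) and Hsph1 (-0.81 ± 0.15) were also lower, and Hspb1 (1.19 ± 0.20) was higher. None of the 90 tested genes of these 5 lists passed in either comparison of beta-glucan within a diet, by edgeR.

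The genes outside all lists whose deviations from the group mean were most like those of Dbp over the 19 libraries were Mmp19 (r = 0.850), Shpk (0.826), Clcn2 (0.801), Esrp2 (0.796) and Cdk18 (0.793). Those most like Arntl were AW146154 (r = 0.811), Map3k1 (0.799), Acaca (0.764), Nbeal1 (0.763) and Casp8ap2 (0.762). They were selected as the highest of all genes with a mean of at least 2 CPM, so their r is a description.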

How the data were processed

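Bulk RNA-seq of 19 liver libraries was analysed. Libraries were stranded mRNA libraries, per the labels' protocols, and reads were quantified with Salmon 1.10.1, with build GRCm39 and DESeq2 1.38.3 also named, per the submitters' processing notes. The deposited files give estimated counts (expected counts, unscaled) and TPM per transcript, and another value, an effective length in bases per transcript. Of 116546 transcripts, 115977 (99.51%) matched GENCODE M21 and were summed to genes. The other 569, with 0.0623% to 0.1095% of a library's reads, were left out. Counts were rounded.

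edgeR 4.0.16 in R 4.3.3 was run on genes kept by filterByExpr, with TMM scaling, a mean per group over all 19 libraries, and the quasi-likelihood F test with robust dispersions (common value 0.0341). P-values were adjusted over all 13594 genes within each of 5 contrasts, threshold 0.05. The SE is the absolute log2 fold change divided by the square root of F. The fit was tested on simulated data. CPM are TMM-scaled, with a prior count of 2 on the log2 scale. Alternatives were RLE scaling, no filter, DESeq2 1.42.0, effective length offsets, the libraries of a contrast alone, the libraries of low S number left out or given a term, and each library left out in turn. Replicates are numbered in order of deposition. Reads lack molecular identifiers, so counts are not independent molecules.

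The 10 clock genes and the related gene lists were chosen with earlier results of these data known. All 10 are named in all contrasts, and each related list gives 4 names, the called members of lowest p in WSD against CTRL. Of these, 1 gene is counted in its list but its values are not reported here. The genes most like Dbp and Arntl are the 5 with the highest r outside the lists.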

Additional observations from a re-analysis of the deposited data

Results flagged for a closer look

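Each of the 10 genes was looked at in each of the 4 groups for a library set apart from the rest by Dixon's criterion, and 4 of 40 sets had one, where chance gives about 1 in 20, or 2 of 40. Cry1 was at 7.32 CPM in WSD replicate 1, against 4.37 to 5.22 CPM in the other WSD livers. Npas2 was at 3.17 CPM in CTRL+beta-Glucan replicate 1, against 6.08 to 7.02 CPM in the others of that group. Per3 was at 2.64 CPM in CTRL+beta-Glucan replicate 3, against 0.938 to 1.12 CPM in the others. Clock was at 38.7 CPM in CTRL replicate 5, against 29.8 to 31.1 CPM in the other CTRL livers.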

How the results depend on the processing

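Over 1290 recomputed log2 fold changes of the clock genes, 1213 kept their direction and side of the threshold, 16 came to pass it, 10 no longer passed it and 51 changed sign, of which 0 were called in the original fit. The number of clock genes called stayed within 1.5 times its value in every contrast and setting. No setting moved the median of all genes by over 0.1. Every setting scaled libraries to the typical gene, so this could not show a shift shared by most genes. With length offsets, Npas2 in WSD against CTRL turned to -0.062 and the difference of the beta-glucan effects for Cry1 to 0.035. Without the 3 libraries of low S number, WSD+beta-Glucan against WSD turned to -0.13 for Per2, -0.10 for Per3 and -0.25 for Dbp, CTRL+beta-Glucan against CTRL to -0.90 for Nr1d1 and -0.045 for Dbp, and the difference of the effects to 0.11 for Per1, -0.043 for Per2 and 1.03 for Nr1d1. With a term for them, WSD+beta-Glucan against WSD turned to -0.090 for Nr1d1 and -0.22 for Dbp, CTRL+beta-Glucan against CTRL to 0.019 for Cry1, -0.60 for Nr1d1 and -0.078 for Dbp, and the difference to 0.51 for Nr1d1. Leaving out each library in turn, WSD against CTRL ran from -0.087 to 0.50 for Npas2, from -0.74 to 0.043 for Per1 and from -0.052 to 0.18 for Nr1d2. WSD+beta-Glucan against WSD ran from -0.55 to 0.14 for Npas2, -0.13 to 0.20 for Per2, -0.12 to 0.33 for Per3, -0.22 to 0.016 for Cry1 and -0.25 to 0.62 for Dbp. CTRL+beta-Glucan against CTRL ran from -0.012 to 0.12 for Arntl, -0.42 to 0.084 for Per2, -0.13 to 0.017 for Cry1 and -0.009 to 0.73 for Nr1d1. The difference of the effects ran from -0.66 to 0.12 for Per1, -0.035 to 0.47 for Per2, -0.17 to 0.073 for Cry1, -0.46 to 0.28 for Nr1d1 and -0.66 to 0.21 for Dbp. The relation of Arntl to Per2 turned to r = 0.062 without the libraries farthest from the median of Arntl and to 0.486 on the control diet.

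Over all genes, the 53 calls in WSD+beta-Glucan against WSD became 436 by DESeq2, 35 with length offsets, 258 with a term for the low S numbers, 457 from the libraries of the contrast alone and 2 to 184 with a library left out. The 1 call in CTRL+beta-Glucan against CTRL became 6 by DESeq2, 5 without the low S numbers, 2 with the term, 0 from the contrast alone and 0 to 2 with a library left out. The 1 call in the difference of the effects became 139 by DESeq2, 2 without the low S numbers, 2 with the term and 0 to 81 with a library left out. The cause was not tested.

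No paired analysis was possible because the replicate numbers follow the order of deposition and pair no animals. Per3 rested on 13 to 155 reads per library, so its low values carry the largest counting error of the 10. The collection time, the strand setting of the quantification and the meaning of the S number are not given in the sources used here, and each limits the diet comparison.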
